A study of Mus musculus with 14 samples.

Results

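The 8 genes described here encode enzymes that make, recycle or use UDP-N-acetylglucosamine (UDP-GlcNAc): Gfpt1, Gfpt2, Gnpnat1, Pgm3, Uap1, Nagk, Ogt and Dpagt1. They were picked by symbol for their place in the hexosamine pathway and its main uses, and each is represented by the transcript line with its highest read sum over the 14 libraries. They are 8 of the 40800 genes named in the deposited table, and all 8 were among the 17696 genes with enough reads to be tested.

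The hexosamine pathway branches from glycolysis and joins glucose, glutamine, acetyl-CoA and UTP into UDP-GlcNAc, so its substrates come from both sugar and amino acid metabolism. Gfpt1 and Gfpt2, the glutamine-fructose-6-phosphate transaminases, catalyse the rate-limiting entry step. Gnpnat1 acetylates the resulting glucosamine-6-phosphate, Pgm3 moves the phosphate to the first carbon, and Uap1, the pyrophosphorylase, adds the nucleotide. Nagk, the N-acetylglucosamine kinase, returns salvaged sugar to the pathway ahead of Pgm3. UDP-GlcNAc then feeds Dpagt1, which starts the dolichol-linked precursor of N-glycans in the endoplasmic reticulum (ER), and Ogt, which attaches single O-GlcNAc residues to nuclear and cytosolic proteins. Oga, the hydrolase that removes O-GlcNAc, is given beside Ogt.

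The cells were mouse embryonic fibroblasts (MEFs), cultured connective tissue cells of embryos, for which the labels give no strain, genotype, embryonic age or passage. Total RNA was sequenced from 14 libraries in 7 groups of 2: an unstarved control (0 h), amino acid starvation for 3, 6 and 12 h, and glucose starvation for 3, 6 and 12 h. Before starvation all cells grew in high glucose DMEM with ordinary serum. Starved cells were washed, kept in medium lacking either amino acids or glucose with dialyzed serum, trypsinised and frozen in dialyzed serum with DMSO, whereas the control was frozen in ordinary serum without a change to starvation medium. Starvation and this handling cannot be told apart in any comparison with the control, and the 6 comparisons with the control share the same 2 control libraries. The protocol text also mentions a transfection without tying it to any sample. Whether both libraries of a group stem from separate cultures is not stated by any label, and p-values therefore reflect the spread between libraries alone, which may be technical. As the RNA is from bulk cultures, fewer cells of a type and less RNA per cell cannot be told apart.

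Libraries held 35270751 to 55349673 reads with 1 transcript per gene, of which 18646 to 44853 fell on the 8 genes. Mitochondrial transcripts made up 3.95% to 6.58% of reads. Levels are CPM, read counts brought to a common total with TMM factors. Changes are log2 fold changes with their standard error (SE) from edgeR's quasi-likelihood test, and a gene is said to rise, fall or differ where its Benjamini-Hochberg adjusted p over all genes tested was under 0.05. Of 8 fibroblast marker genes 7 were tested, and their summed level was 7000 to 7723 CPM in the control and 2141 to 8595 CPM over all libraries, while 4 epithelial markers summed to 0.066 to 0.354 CPM and 3 erythroid markers to 0 to 0.196 CPM. The summed endothelial markers ranged from 4.21 to 23.5 CPM (4.21 to 5.08 in the control), macrophage markers from 14.4 to 23.9, neural markers from 33.9 to 73.1, skeletal muscle markers from 0.699 to 5.78 and adipocyte markers from 0.0378 to 0.403 CPM. The endothelial sum was nearly all Kdr (3.90 to 23.0 CPM), while Pecam1, Cdh5 and Tek did not exceed 0.699 CPM in any library. The macrophage sum was nearly all Csf1r and Cd68, and the neural sum Tubb3 and Map2. After 12 h without amino acids 5 of the 7 fibroblast markers were lower than the control and 1 higher (32% and 34.9% of all genes). After 12 h without glucose 4 were lower and 0 higher (28% and 30.4% of all genes). The sizes differed between the starvations, and the lowest sum, 2141 CPM, was in a 12 h amino acid library. Vim had a mean of 2246 CPM in the control, 99.3 after 12 h without amino acids and 2214 after 12 h without glucose. In the same order Col1a2 had 1155, 53.4 and 373 CPM, and Fn1 had 1515, 1744 and 1595 CPM. Adgre1 (macrophage), Sox2 (neural) and Hbb-bs (erythroid) had 0 reads in all libraries. Of the fibroblast markers, Thy1 had 0 CPM in the control and a mean of 0.0301 CPM after 3 h without glucose. Dcn, another fibroblast marker, had a mean of 0.0872 CPM in the control. The part of these markers in the results was not tested.

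Promoter sequences are shown for a pair of genes that moved together, Gfpt1 and Pgm3, and for Ogt. Against the control, Ogt rose where the pair fell without amino acids, and it rose with the pair after 12 h without glucose. RefSeq entries of the build GRCm38.p6 were found for 6 of the 8 genes, not for Gnpnat1 and Dpagt1. The 250 bases before the start are printed 5′ to 3′ on the strand of the gene for Gfpt1 (chr6:87042596-87042845, plus strand), Pgm3 (chr9:86571843-86572092, minus strand) and the upstream start of Ogt (chrX:101639801-101640050, plus strand). Capitals mark a match to GACGTG, the core bound by the stress factor XBP1, read on either strand.
Gfpt1: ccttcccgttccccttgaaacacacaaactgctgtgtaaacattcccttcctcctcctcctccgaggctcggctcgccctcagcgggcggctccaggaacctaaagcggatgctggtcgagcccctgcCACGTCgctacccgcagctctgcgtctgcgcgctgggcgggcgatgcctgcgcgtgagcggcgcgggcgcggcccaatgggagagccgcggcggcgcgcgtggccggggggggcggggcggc
Pgm3: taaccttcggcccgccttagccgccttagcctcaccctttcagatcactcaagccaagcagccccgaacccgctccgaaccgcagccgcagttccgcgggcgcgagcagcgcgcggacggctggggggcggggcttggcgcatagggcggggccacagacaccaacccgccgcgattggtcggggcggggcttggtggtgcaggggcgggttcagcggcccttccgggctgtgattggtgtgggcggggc
Ogt: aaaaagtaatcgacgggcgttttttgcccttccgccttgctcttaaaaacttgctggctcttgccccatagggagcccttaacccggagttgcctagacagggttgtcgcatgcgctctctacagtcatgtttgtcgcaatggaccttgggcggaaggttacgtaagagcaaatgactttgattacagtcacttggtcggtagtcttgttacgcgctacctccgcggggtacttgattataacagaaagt
The match in Gfpt1 lies on the minus strand, 122 to 117 bases before the start. GACGTG, searched on both strands, was in 5.2% of 32851 promoters of this length, and among the 6 genes with an entry Gfpt1 and Gfpt2 held it. The C/EBP-ATF response element written as TGATGNAAN was in 3.44% of promoters and in none of the 6, and TGACGTGG, the unfolded protein response (UPR) element that contains GACGTG, was in 0.563% and in none of the 6. The ER stress response elements I and II, searched by their full consensus on both strands, were in 0.113% and 0.0304% of promoters and in none of the 6. G and C made up 72% of the bases shown for Gfpt1, 71.6% for Pgm3 and 49.6% for Ogt.

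**Figure D1:**
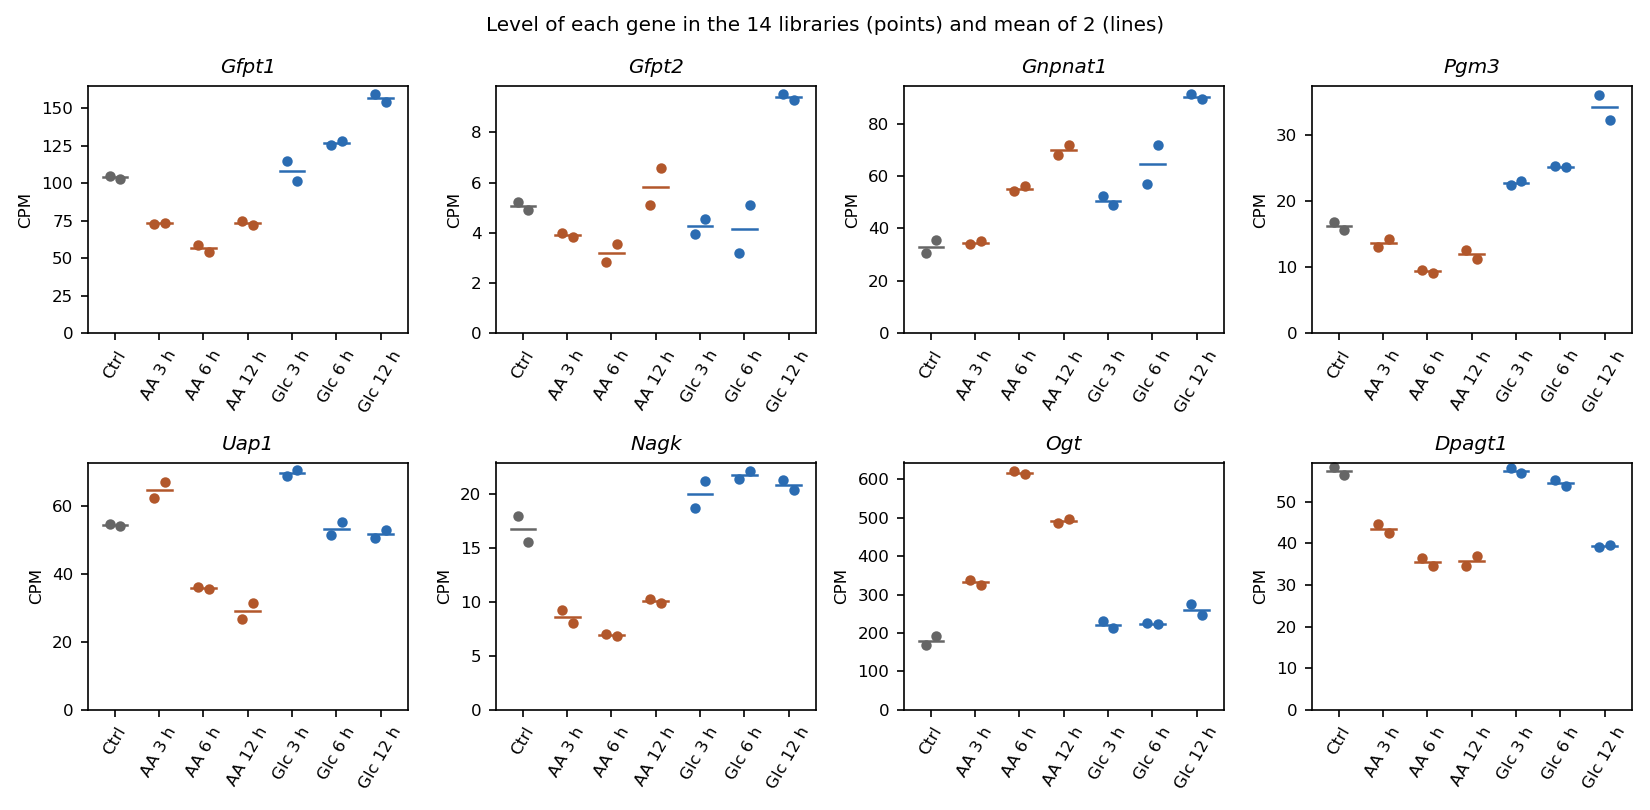
Level of each of the 8 genes in CPM (vertical axis, from 0, a scale of its own per gene) in every library, with points for libraries and a line for the mean of 2, in the control (Ctrl), amino acid starvation (AA) and glucose starvation (Glc). Gfpt1 and Pgm3 lie below the control along amino acid starvation and are highest after 12 h of glucose starvation, and Ogt is highest after 6 h of amino acid starvation, at 621 and 613 CPM.

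The entry enzyme Gfpt1 fell in amino acid starvation and rose in glucose starvation. Its level was 105 and 103 CPM in the 2 control libraries. It was 72.8 and 73.7 CPM after 3 h without amino acids, 58.8 and 54.3 after 6 h, and 75.0 and 72.2 after 12 h. Without glucose it was 115 and 102, 125 and 128, and 159 and 154 CPM at the same times. Every amino acid starved library was thus below the control, the 3 h glucose starved libraries overlapped it, and the later ones lay above it. Against the control the log2 changes in amino acid starvation were −0.51 (SE 0.061, adjusted p = 3.27e-08), −0.88 (SE 0.062, adjusted p = 2.9e-13) and −0.50 (SE 0.061, adjusted p = 2.51e-08). In glucose starvation they were 0.06 (SE 0.061, adjusted p = 0.487), 0.28 (SE 0.060, adjusted p = 0.000272) and 0.59 (SE 0.060, adjusted p = 1.17e-09), so that the 12 h level was 1.51-fold that of the control.

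Gfpt2, the second transaminase, was the lowest of the 8 genes and the least precisely measured. Its control level was 5.23 and 4.91 CPM, against 3.99 and 3.82, 2.83 and 3.56, and 5.10 and 6.57 CPM along amino acid starvation. Along glucose starvation it was 3.94 and 4.56, 3.19 and 5.13, and 9.51 and 9.27 CPM. The libraries after 12 h of glucose starvation stood above all the others. Those after 6 h of either starvation and after 12 h of amino acid starvation were spread widely. Gfpt2 rose after 12 h without glucose by a log2 of 0.89 (SE 0.174, adjusted p = 6.66e-05) and fell after 6 h without amino acids by 0.66 (SE 0.187, adjusted p = 0.00294). The latter call was lost without replicate 1 of that group (−0.51, adjusted p = 0.0529). The other 4 changes against the control, between −0.38 and 0.21, did not pass, but the 6 h glucose value did without replicate 2 of its group (−0.67, adjusted p = 0.0188) and the 3 h amino acid value did with library totals (−0.55, adjusted p = 0.0105). Per kilobase of transcript, Gfpt2 stood at 10.6% and 10.1% of the level of Gfpt1 in the control, 14.4% and 19.3% after 12 h of amino acid starvation and 5.39% and 8.49% after 6 h of glucose starvation.

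Gnpnat1 rose in both starvations. It measured 30.6 and 35.7 CPM in the control, then 34.0 and 35.0, 54.1 and 56.3, and 68.0 and 71.9 CPM along amino acid starvation. Along glucose starvation it was 52.4 and 48.9, 57.0 and 72.0, and 91.3 and 89.3 CPM. Only the 3 h amino acid starved libraries overlapped the control, where the log2 change was 0.06 (SE 0.087, adjusted p = 0.566). By 12 h Gnpnat1 was higher by a log2 of 1.08 (SE 0.085, adjusted p = 6.1e-12) without amino acids and 1.45 (SE 0.085, adjusted p = 2.23e-14) without glucose, 2.11-fold and 2.73-fold. In the GRCm38 annotation 2574 of the 2788 exon bases of this transcript (92.3%) are also exon of Styx, a pseudophosphatase gene on the opposite strand, and whether counting used strand is not stated. Reads of the 2 genes therefore cannot be told apart, and every value of Gnpnat1 may hold reads of Styx. Styx as listed rose in all 6 comparisons, by 0.32, 0.84 and 0.96 on the log2 scale along amino acid starvation and by 0.64, 0.92 and 1.24 along glucose starvation.

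Pgm3, the phosphate mutase, moved like Gfpt1. Its level was 16.8 and 15.7 CPM in the control, 13.0 and 14.2, 9.64 and 9.18, and 12.7 and 11.3 CPM along amino acid starvation. Along glucose starvation it was 22.4 and 23.0, 25.3 and 25.1, and 36.0 and 32.3 CPM. Both control libraries lay above all 6 amino acid starved libraries and below all 6 glucose starved ones. Pgm3 rose at each time of glucose starvation, to a log2 change of 1.08 after 12 h (SE 0.091, adjusted p = 2.7e-11), or 2.11-fold. Without amino acids it fell by 0.25 after 3 h (SE 0.096, adjusted p = 0.0239), by 0.79 after 6 h (SE 0.098, adjusted p = 3.64e-08) and by 0.44 after 12 h (SE 0.095, adjusted p = 0.000178). The 3 h call was lost without control replicate 1 (−0.21, adjusted p = 0.142) or without replicate 1 of the starved group (−0.19, adjusted p = 0.192), and under 4 other settings (adjusted p = 0.0509 to 0.0997). Of the exon bases of this transcript, 1027 of 2666 (38.5%) are also exon of Dop1a on the opposite strand, and without stated strand those reads cannot be told apart. Dop1a as listed did not fall at any time: its log2 changes were 0.17, 0.31 and 0.69 without amino acids and 0.40, 0.17 and 0.53 without glucose.

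Uap1, which completes UDP-GlcNAc, rose after 3 h of both starvations and was later below the control without amino acids. Control libraries had 54.6 and 54.1 CPM. Amino acid starved libraries had 62.1 and 67.0, 36.1 and 35.5, and 26.8 and 31.5 CPM, and glucose starved libraries 68.9 and 70.5, 51.2 and 55.1, and 50.5 and 53.0 CPM. No 3 h library overlapped the control, and at 6 and 12 h the amino acid starved libraries were the lowest of all. After 3 h the log2 change was 0.25 without amino acids (SE 0.072, adjusted p = 0.00381) and 0.36 without glucose (SE 0.072, adjusted p = 0.000163). The former call was lost without replicate 2 of that group (0.19, adjusted p = 0.0747), and with libraries scaled by their totals in place of TMM (0.07). After 12 h it was −0.90 without amino acids (SE 0.074, adjusted p = 8.07e-12) and −0.07 without glucose (SE 0.072, adjusted p = 0.402), where scaling by library totals gave −0.18 and a call.

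Nagk, the salvage kinase, fell in amino acid starvation from 18.0 and 15.6 CPM in the control to 9.22 and 8.07, 6.99 and 6.80, and 10.3 and 9.86 CPM. Its log2 changes were −0.96 (SE 0.108, adjusted p = 8.05e-09), −1.28 (SE 0.108, adjusted p = 1.67e-11) and −0.74 (SE 0.104, adjusted p = 3.43e-07). After 6 h it was thus at 0.411 times its control level, the lowest ratio to the control of any of the 8 genes. Glucose starved libraries had 18.7 and 21.2, 21.3 and 22.1, and 21.3 and 20.4 CPM, all above the control. These increases passed, at log2 0.25 (adjusted p = 0.0471), 0.38 (adjusted p = 0.00283) and 0.31 (adjusted p = 0.00823), but none held when control replicate 2 was left out (0.15, 0.27 and 0.21, adjusted p = 0.375, 0.0692 and 0.141). The 3 h call was also lost without replicate 2 of its own group (0.16, adjusted p = 0.357) and at an adjusted p of 0.0516 to 0.0624 without any 1 of 8 libraries of 4 other starved groups, and the 12 h call without replicate 1 of its group (0.28, adjusted p = 0.0723). Scaling by library totals ended the 3 and 12 h calls (0.08 and 0.21).

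Dpagt1, the first enzyme of N-glycan precursor assembly and the target of the antibiotic tunicamycin, fell without amino acids and, after 12 h, without glucose. It measured 58.2 and 56.4 CPM in the control, and 44.6 and 42.5, 36.4 and 34.5, and 34.5 and 37.0 CPM along amino acid starvation. Along glucose starvation it was at 58.1 and 56.9, then 55.3 and 53.8 CPM, and was at 39.1 and 39.5 CPM after 12 h. All amino acid starved libraries were below the control, and of the glucose starved ones the 3 h pair overlapped it. Dpagt1 fell without amino acids, with log2 changes of −0.40, −0.69 and −0.68 (SE 0.067 each, largest adjusted p = 7.75e-06). Without glucose the changes were 0.004 (adjusted p = 0.973) and −0.07 (adjusted p = 0.399) before a fall by 0.54 after 12 h (SE 0.067, adjusted p = 4.52e-08). Scaled by library totals, the 3 h value turned to −0.16 (adjusted p = 0.0407) and the 6 h value to −0.20, and both were then called lower.

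Ogt, the single enzyme that attaches O-GlcNAc in the nucleus and cytosol, rose in all 6 comparisons with the control and most without amino acids. The control libraries held 168 and 192 CPM, and the amino acid starved libraries 338 and 326, 621 and 613, and 486 and 496 CPM. The glucose starved libraries held 231 and 212, 226 and 222, and 274 and 246 CPM. No starved library was as low as the control, and no glucose starved library was as high as any amino acid starved one. The log2 changes along amino acid starvation were 0.88 (SE 0.062, adjusted p = 5.07e-13), 1.78 (SE 0.063, adjusted p = 5.53e-20) and 1.45 (SE 0.063, adjusted p = 3.55e-18), with 3.43-fold the control level at 6 h. Along glucose starvation they were 0.30 (SE 0.063, adjusted p = 0.000222), 0.32 (SE 0.062, adjusted p = 0.000107) and 0.53 (SE 0.062, adjusted p = 1.79e-08), the 3 h rise losing its call with library totals (0.13, adjusted p = 0.0793). A second Ogt transcript in the table, of 3840 bases, held 69.2% to 81.0% as many reads as the 5384-base transcript used here.

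Oga, the opposing hydrolase, rose with Ogt without amino acids but not without glucose. It measured 96.8 and 104 CPM in the control, then 329 and 336, 410 and 419, and 260 and 273 CPM along amino acid starvation. Along glucose starvation it was 104 and 101, 64.4 and 67.1, and 105 and 103 CPM. Its log2 changes were 1.73, 2.05 and 1.41 without amino acids (SE 0.055, 0.056 and 0.055). Without glucose they were 0.03 (adjusted p = 0.713), −0.61 (SE 0.056, adjusted p = 3.54e-10) and 0.05 (adjusted p = 0.48). Of its exon bases 10.9% are also exon of Gm15491. The ratio of Ogt to Oga, each in CPM per kilobase, was 1.63 and 1.73 in the control, 0.963 and 0.911 after 3 h without amino acids, 1.42 and 1.38 after 6 h, and 1.76 and 1.71 after 12 h. Without glucose it was 2.09 and 1.97, 3.29 and 3.11, and 2.45 and 2.25. Amino acid starvation for 3 h therefore gave the lowest ratios and glucose starvation for 6 h the highest.

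**Figure D2:**
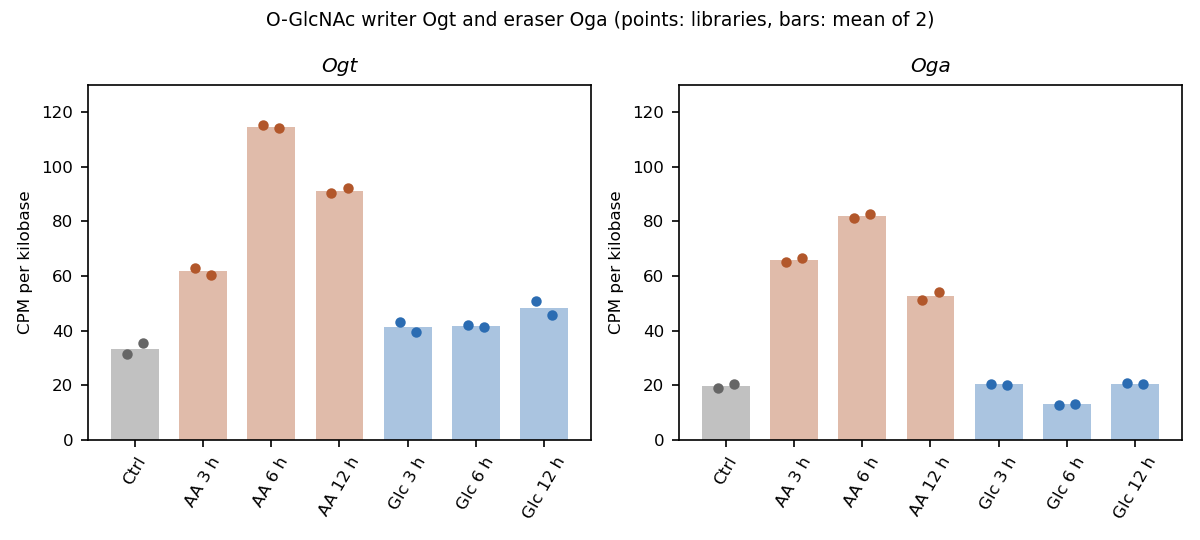
Levels of the O-GlcNAc writer Ogt and the eraser Oga in CPM per kilobase of transcript (vertical axis, from 0, the same in both panels), with points for libraries and bars for the mean of 2, in the control, amino acid starvation (AA) and glucose starvation (Glc). Both are highest after 6 h of amino acid starvation, while along glucose starvation every Ogt library is above the control and Oga is lowest at 6 h.

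After 3 h of amino acid starvation 2 of the 8 genes were called higher and 4 lower, where 27.9% of all genes tested were called higher and 32.1% lower. After 6 h the counts were 2 and 6 (32.3% and 33.3% of all genes), and after 12 h 2 and 5 (34.9% and 32% of all genes). After 3 h of glucose starvation 5 were higher and 0 lower (20.3% and 23.1% of all genes), after 6 h again 5 and 0 (23.3% and 24.2%), and after 12 h 6 and 1 (30.4% and 28%). None of the 8 was called lower at 3 and 6 h of glucose starvation in edgeR's test, and none was lower at an unadjusted p under 0.05 or by DESeq2, but scaling by library totals called Dpagt1 lower at both times, and Gfpt2 was called lower at 6 h without replicate 2 of that group (−0.67, adjusted p = 0.0188). The median log2 change of the 8 genes was −0.31, −0.67 and −0.47 along amino acid starvation, beside −0.07, −0.01 and 0.06 for all genes tested. Along glucose starvation it was 0.28, 0.30 and 0.56, beside −0.04, −0.01 and 0.01. The falls of Gfpt1, Pgm3, Nagk and Dpagt1 passed at all 3 times without amino acids, and the rises of Gnpnat1, Pgm3, Nagk and Ogt at all 3 times without glucose. Of these calls, the rises of Nagk, the 3 h fall of Pgm3 and the 3 h rise of Ogt were lost under settings given with each gene above. Gnpnat1, which enters all these counts and medians, may hold reads of Styx, and Pgm3 may hold reads of Dop1a. Scaling by library totals in place of TMM moved the median log2 change of all genes to −0.24, −0.08 and 0.19 along amino acid starvation and to −0.21, −0.14 and −0.09 along glucose starvation. The share of calls that were higher, over all genes, then went from 46.5% to 34.2% after 3 h without amino acids, from 46.8% to 25.7% after 3 h without glucose and from 49% to 33.1% after 6 h without glucose. With library totals the 8 genes counted 1 higher and 5 lower, 2 and 6, and 2 and 5 along amino acid starvation, and 3 higher and 1 lower, 5 and 1, and 5 and 2 along glucose starvation.

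**Figure D3:**
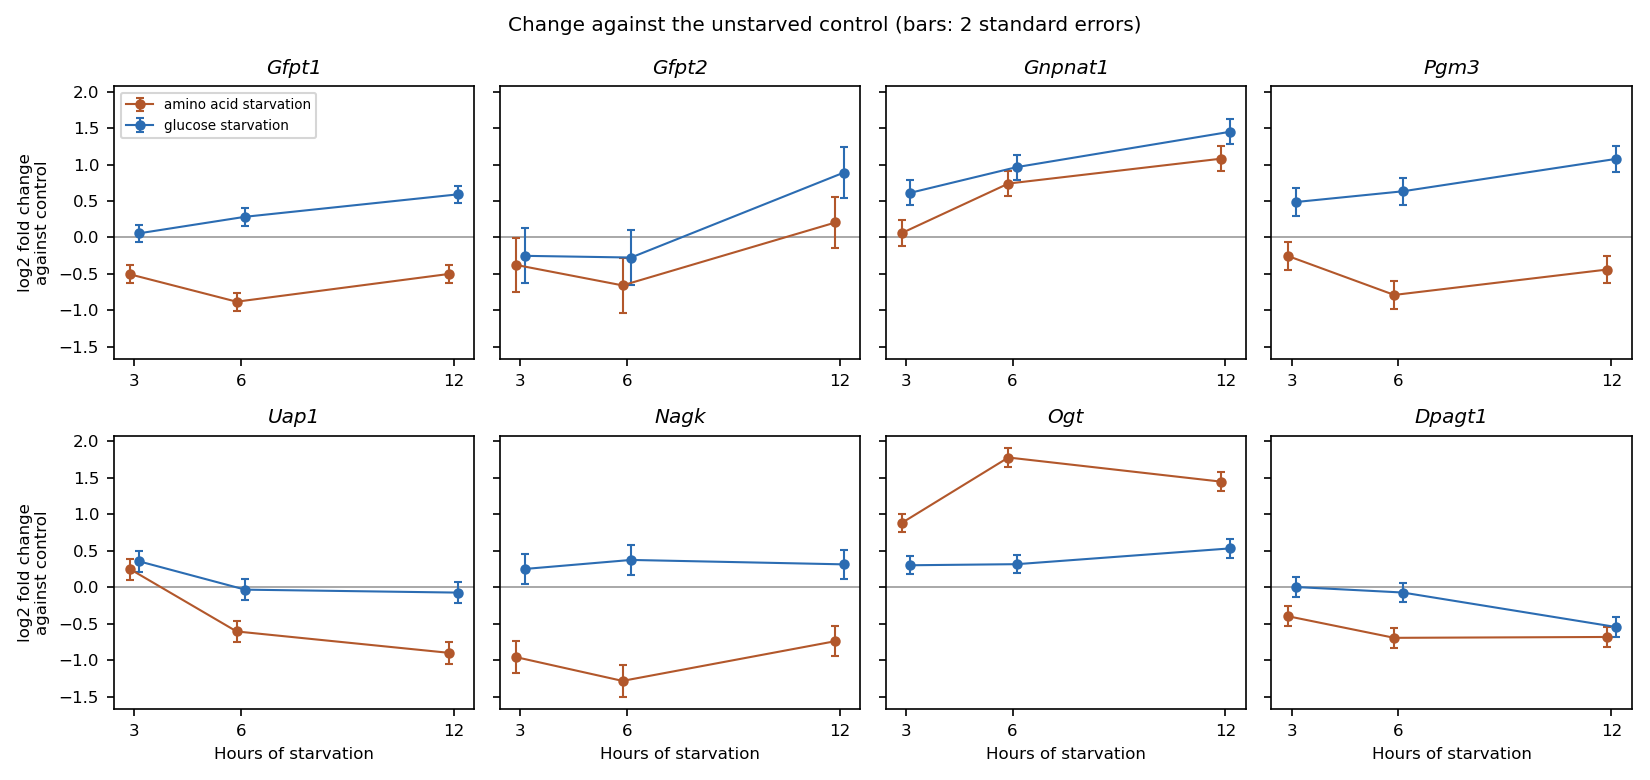
Log2 fold change against the unstarved control (vertical axis) by hours of starvation (horizontal axis) for each of the 8 genes, with points for the fitted change and bars for 2 standard errors, in amino acid starvation and glucose starvation. The points of Gfpt1, Pgm3 and Nagk lie on opposite sides of 0 in the 2 starvations, but the bar of Gfpt1 after 3 h of glucose starvation crosses 0. Gnpnat1 climbs in both, and Ogt peaks at 1.78 after 6 h of amino acid starvation.

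The 2 starvations, which share medium change and dialyzed serum, were compared directly at each time. At 3 h of amino acid against glucose starvation 1 gene was higher and 5 lower (26.7% and 27.7% of all genes), at 6 h 1 and 6 (31.5% and 32.3%), and at 12 h again 1 and 6 (32.5% and 31.6%). The higher gene was Ogt each time, by a log2 of 0.58 (SE 0.062), 1.46 (SE 0.063) and 0.92 (SE 0.062). Among the lower genes Pgm3 differed by −0.74, −1.42 and −1.52 (SE 0.096, 0.097 and 0.093), so that at 12 h it stood at 0.35 times its glucose starved level (adjusted p = 1.36e-14). Nagk differed by −1.21, −1.66 and −1.05, and Gfpt1 by −0.56, −1.16 and −1.09. Uap1 did not pass at 3 h (−0.11, 2 SE interval −0.25 to 0.03) and differed by −0.57 and −0.83 later. Dpagt1 passed at 3 and 6 h (−0.40 and −0.62) and not at 12 h (−0.14, 2 SE interval −0.27 to −0.002, adjusted p = 0.0766), though the latter passed without replicate 2 of the 12 h amino acid group (−0.21, adjusted p = 0.0308). Gfpt2 passed at 12 h alone, at −0.68 (SE 0.171, adjusted p = 0.000898). At 3 and 6 h its differences were −0.12 (2 SE interval −0.51 to 0.27) and −0.38 (2 SE interval −0.77 to 0.005, adjusted p = 0.0864), and the latter passed without replicate 1 of the 6 h glucose group (−0.67, adjusted p = 0.00632). Gnpnat1 was lower at all 3 times, by −0.55, −0.23 and −0.37, and its 6 h call was lost without replicate 1 of the amino acid group (−0.20, adjusted p = 0.116) or replicate 2 of the glucose group (−0.04, adjusted p = 0.702), while without replicate 1 of the glucose group the difference was −0.38. With library totals the share of higher calls over all genes at 12 h went from 50.8% to 65.5%, and the 8 genes counted 1 higher and 5 lower at each of the 3 times, Gnpnat1 losing its calls at 6 and 12 h (−0.17 and −0.13).

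**Figure D4:**
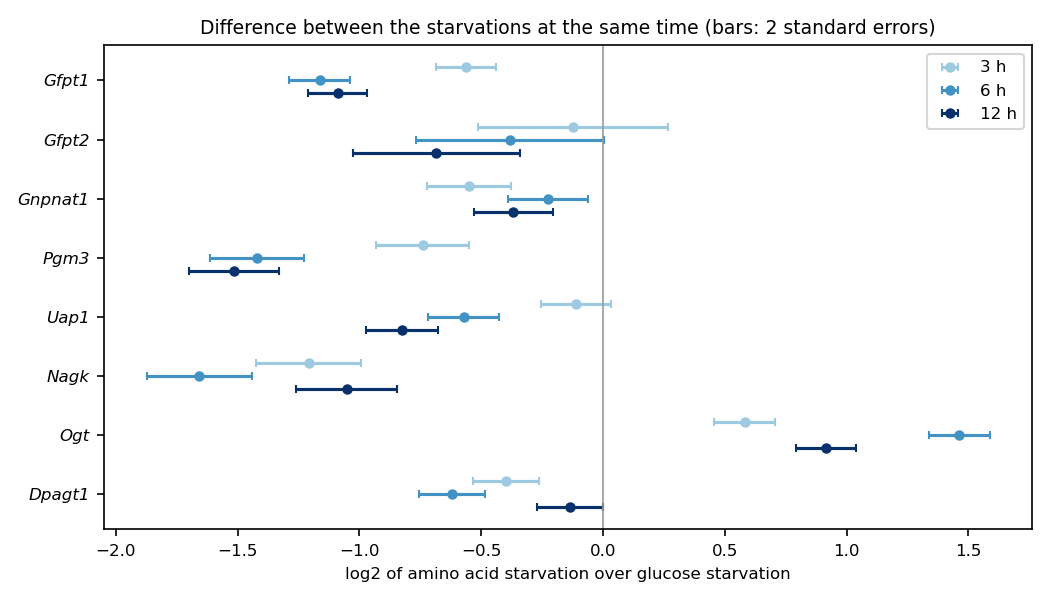
Log2 of amino acid starvation over glucose starvation (horizontal axis) for each gene (vertical axis) at 3, 6 and 12 h, with points for the fitted difference and bars for 2 standard errors. Ogt alone lies right of 0, at up to 1.46, and Pgm3 and Nagk reach the lowest values, −1.52 and −1.66.

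From 3 to 12 h of amino acid starvation 3 of the 8 genes rose and 2 fell (35.5% and 32.9% of all genes), and from 3 to 12 h of glucose starvation 5 rose and 2 fell (31.8% and 25.5% of all genes). Gnpnat1 rose in both, by 1.02 (SE 0.085) without amino acids and 0.84 (SE 0.084) without glucose. Ogt rose by 0.56 (SE 0.062) and 0.23 (SE 0.062), the latter losing its call without replicate 1 of the 12 h glucose group (0.15, adjusted p = 0.0996). Gfpt2 rose by 0.58 (SE 0.183) and 1.14 (SE 0.182), the former losing its call without replicate 2 of the 12 h amino acid group (0.34, adjusted p = 0.182). Uap1 fell by 1.15 (SE 0.074) and 0.43 (SE 0.072), and Dpagt1 fell by 0.28 (SE 0.068) and 0.55 (SE 0.068). Gfpt1 and Pgm3 rose without glucose, by 0.54 (SE 0.060) and 0.59 (SE 0.090). Without amino acids their changes did not pass, at 0.01 (2 SE interval −0.12 to 0.13) and −0.19 (2 SE interval −0.38 to 0.008), but Pgm3 passed without replicate 1 of the 12 h amino acid group (−0.31, adjusted p = 0.0218), with RLE factors (−0.24, adjusted p = 0.0277), in DESeq2 (−0.24, adjusted p = 0.0368) and with its second transcript (−0.29, adjusted p = 0.0186). Nagk passed in neither, at 0.22 (adjusted p = 0.0798) and 0.06 (adjusted p = 0.617), though the former passed without replicate 1 of the 3 h amino acid group (0.32, adjusted p = 0.0481). The test of the difference between the 2 time courses called 3 genes higher and 2 lower for glucose minus amino acid starvation, beside 25.7% and 21.7% of all genes. It was positive for Pgm3 (0.78, SE 0.133), Uap1 (0.72, SE 0.103) and Gfpt1 (0.53, SE 0.086), and negative for Ogt (−0.33, SE 0.087) and Dpagt1 (−0.26, SE 0.095). The call of Dpagt1 was lost without replicate 2 of the 3 h amino acid group (−0.22), replicate 2 of the 12 h amino acid group (−0.21), replicate 1 of the 3 h glucose group (−0.24) or either replicate of the 12 h glucose group (−0.25 and −0.26), at adjusted p of 0.0567 to 0.121. Gfpt2 did not pass (0.56, SE 0.259, adjusted p = 0.077) and did without replicate 2 of the 12 h amino acid group (0.76, adjusted p = 0.0316). Gfpt2 also passed when only the groups compared were fitted (adjusted p = 0.0493). Nagk and Gnpnat1 did not pass, at −0.16 and −0.18. With library totals they did, at −0.40 (adjusted p = 0.0248) and −0.43 (adjusted p = 0.00276), so that 3 genes were higher and 4 lower. For the amino acid time course library totals gave 5 genes higher and 1 lower: Gfpt1 (0.32, adjusted p = 5.42e-05) and Nagk (0.53, adjusted p = 9.76e-05) were then called higher. The share of higher calls over all genes went from 51.9% to 68% for that time course, where Dpagt1 turned to 0.02 (adjusted p = 0.755), and from 54.2% to 34% for the difference.

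Per kilobase of transcript, Ogt had the highest level of the 8 genes in all 7 groups, Pgm3 ranked 7 of 8 and Gfpt2 lowest. In the control the order of mean CPM per kilobase was Ogt (33.4 ± 3.08, SD, n = 2), Dpagt1 (26.0 ± 0.587), Uap1 (23.8 ± 0.158), Gfpt1 (16.7 ± 0.217), Nagk (11.9 ± 1.23), Gnpnat1 (11.9 ± 1.29), Pgm3 (6.09 ± 0.289) and Gfpt2 (1.72 ± 0.0787). Nagk and Gnpnat1 overlapped there and the other neighbours did not. After 6 h of amino acid starvation Ogt reached 115 ± 0.975 CPM per kilobase, Gnpnat1 was the next at 19.8 ± 0.559, and Dpagt1 (16.1 ± 0.613) and Uap1 (15.6 ± 0.188) overlapped. After 12 h of amino acid starvation Uap1 (12.7 ± 1.46) and Gfpt1 (11.8 ± 0.325) overlapped. After 12 h of glucose starvation the order below Ogt (48.3 ± 3.74) was Gnpnat1 (32.4 ± 0.511), Gfpt1 (25.1 ± 0.629), Uap1 (22.6 ± 0.749), Dpagt1 (17.8 ± 0.132), Nagk (14.8 ± 0.469), Pgm3 (12.8 ± 0.991) and Gfpt2 (3.19 ± 0.0577), with no overlap between neighbours. Between 3 and 6 h of glucose starvation several neighbours overlapped: Gnpnat1 and Gfpt1 at 3 h, and at 6 h Gnpnat1 (23.1 ± 3.79) with each of Dpagt1, Uap1 and Gfpt1. Levels rest on the transcript length in the table and on the overlaps given above for Gnpnat1 and Pgm3.

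Across the 14 libraries the log2 CPM of Gfpt1 correlated with that of Pgm3 at a Pearson r of 0.971 and with that of Nagk at 0.941, and Ogt correlated with Dpagt1 at −0.876 and with Nagk at −0.852. The points share their libraries, scaling and groups, so these are descriptions. For each gene whose group means spanned a log2 of at least 1, the 3 most alike genes were taken from 9145 candidates. Gfpt1 was most like Tmtc4 (0.991), Npepl1 (0.988) and Lman1 (0.988), the last a cargo receptor between ER and Golgi. Pgm3 was most like Mroh1 (0.985), Sdf2l1 (0.983) and Creld2 (0.982), the latter pair ER stress genes. Nagk was most like Acad9 (0.989), Ufsp2 (0.986) and Faim (0.981). Ogt was most like Mga (0.98), Ern1 (0.979), which encodes the ER stress sensor IRE1, and Luc7l2 (0.979). Uap1 was most like Msantd3 (0.972), Adamts1 (0.968) and Ccdc6 (0.961), and Gfpt2 like Mccc1 (0.928), Mpzl1 (0.922) and Mocs2 (0.92). Gnpnat1 was most like Washc4 (0.971), Sec61a2 (0.97) and Styx (0.968), the last being the gene that shares its exon bases. The group means of Dpagt1 spanned 0.70, so no gene was named for it.

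Beside the list counts here and below stand the shares of all genes called against the control at 3, 6 and 12 h. Without amino acids these were 27.9% higher and 32.1% lower, 32.3% and 33.3%, and 34.9% and 32%. Without glucose they were 20.3% and 23.1%, 23.3% and 24.2%, and 30.4% and 28%. Among 12 genes that lead back from the pathway or use its product elsewhere, 2 rose and 7 fell after 3 h of amino acid starvation, 3 and 6 after 6 h, and 5 and 3 after 12 h. Along glucose starvation 4 rose and 4 fell, then 3 and 4, then 6 and 2. Amdhd2, the deacetylase that undoes the Gnpnat1 step, had 20.8 and 18.6 CPM in the control and rose without glucose to 57.1 and 56.0 CPM after 12 h (log2 1.52, SE 0.083). Without amino acids it fell by 0.41 after 3 h and fell by 0.94 after 6 h, and its 12 h change was −0.17 (adjusted p = 0.0859). Gnpda1, the deaminase that returns glucosamine-6-phosphate to glycolysis, rose by 1.31 (SE 0.072) after 12 h without amino acids and by 1.47 (SE 0.072) without glucose. Renbp, an epimerase of N-acetylglucosamine, rose in all 6 comparisons, by 0.34 to 0.99. Gne, the first enzyme of sialic acid synthesis, fell along amino acid starvation (log2 −2.40, −2.11 and −1.24), and fell by 1.16 after 3 h of glucose starvation.

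Of 7 genes that supply the substrates, 5 rose and 1 fell after 3 h without amino acids, 4 and 2 after 6 h, and 3 and 4 after 12 h. Without glucose 5 rose at each time, and 0, 0 and 1 fell. Slc2a1, the glucose transporter GLUT1, had 57.0 and 64.9 CPM in the control and rose without glucose by 1.07, 0.84 and 0.95 (SE 0.068, 0.068 and 0.067). Without amino acids it rose by 0.29 after 3 h and fell by 0.36 after 12 h. Slc1a5, a glutamine transporter, rose by 1.51, 2.06 and 1.48 without amino acids and by 0.57, 1.14 and 0.57 without glucose. Hexa, a lysosomal hexosaminidase gene, rose after 12 h by 1.03 (SE 0.056) without amino acids and by 0.61 (SE 0.056) without glucose.

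Of 21 genes that extend the dolichol-linked sugar begun by Dpagt1, 3 rose and 14 fell after 3 h of amino acid starvation, 4 and 13 after 6 h, and 11 and 5 after 12 h. Along glucose starvation 4 rose and 5 fell, then 9 and 2, then 14 and 4. Dpagt1 was thus lower after 12 h in both starvations where the list had a median log2 change of 0.24 without amino acids and 0.30 without glucose. Mpdu1, needed for the use of dolichol-linked mannose, rose by 1.40 (SE 0.097) after 12 h without amino acids. Of 12 oligosaccharyltransferase genes, whose complex moves the finished sugar onto proteins, 1 rose and 9 fell after 3 h without amino acids, 1 and 7 after 6 h, and 1 and 8 after 12 h. Without glucose 5 rose and 2 fell, then 7 and 3, then again 7 and 3. Ostc fell by 1.41 (SE 0.068) after 12 h without amino acids and rose by 0.55 (SE 0.064) after 12 h without glucose.

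Of 9 genes for N-glycan branching and hyaluronan, which also consume UDP-GlcNAc, 2 rose and 4 fell after 3 h without amino acids, 1 and 5 after 6 h, and 1 and 7 after 12 h. Without glucose 2 rose and 3 fell, then 3 and 3, then 1 and 7. Has2, a hyaluronan synthase gene, had 15.9 and 14.9 CPM in the control, with 4.3% of its exon bases shared with Has2os. It was at 131 and 132 CPM after 3 h without amino acids and 101 and 88.6 CPM after 3 h without glucose, and at 1.73 and 1.95 CPM and 1.21 and 1.41 CPM after 12 h. Mgat3, which adds the bisecting GlcNAc, fell in all 6 comparisons, with the lowest log2 change, −2.21, after 6 h without amino acids. Of 12 genes for other nucleotide sugars, 2 rose and 7 fell after 3 h without amino acids, 0 and 10 after 6 h and 0 and 9 after 12 h, against 2 and 2, 4 and 4, and 5 and 2 without glucose. Ugdh, which makes UDP-glucuronate, rose by 0.48 (SE 0.058) after 3 h without amino acids, did not pass at 6 h (−0.06, adjusted p = 0.42) and fell by 1.43 (SE 0.061) after 12 h. Without glucose it rose by 0.93, 1.09 and 0.38 (SE 0.059, 0.059 and 0.058).

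**Figure D5:**
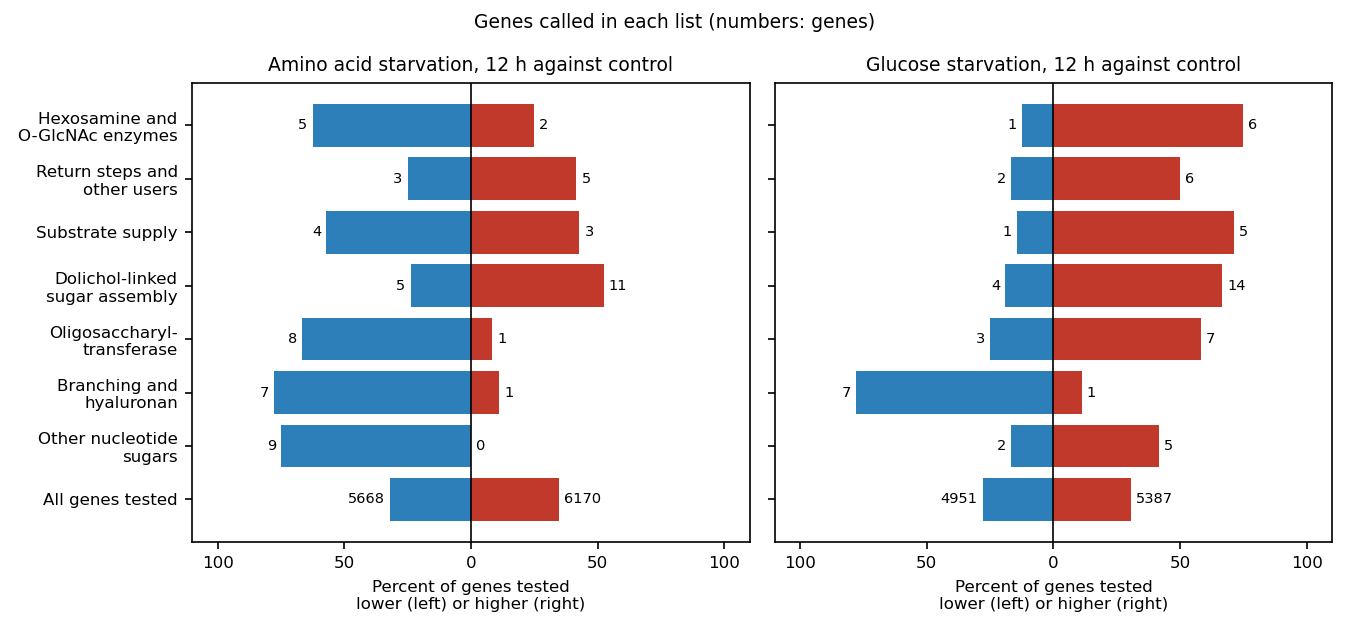
Percent of the genes tested in each list (horizontal axis) that were called lower (left of 0) or higher (right of 0) after 12 h of amino acid starvation (left panel) and glucose starvation (right panel) against the control, with the number of genes beside each bar. The 8 hexosamine and O-GlcNAc genes show 5 lower and 2 higher without amino acids and 1 lower and 6 higher without glucose, and the lowest bars give all genes tested.

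Genes of the stress pathways known to act on this route stood as follows in the same libraries. Of 11 reference genes 8 rose and 1 fell after 3 h without amino acids, 7 and 2 after 6 h, and 8 and 3 after 12 h, against 9 and 1 at each time without glucose. Asns and Trib3, targets of the amino acid response factor ATF4, rose in all 6 comparisons, Trib3 by 5.66 after 12 h without amino acids and 5.28 without glucose. Hspa5, the ER chaperone BiP, rose by 1.26, 1.55 and 1.71 along glucose starvation. Along amino acid starvation it rose by 0.24 at 3 h, did not pass at 6 h (−0.10, adjusted p = 0.0773) and fell by 0.40 at 12 h. Xbp1 rose by 0.74, 0.74 and 0.36 without glucose, and without amino acids it did not pass at 3 h (−0.06, adjusted p = 0.441) and fell later (−0.88 and −1.54). Sdf2l1, an ER chaperone partner, rose without glucose (0.51, 1.32 and 2.29) and fell without amino acids (−0.94, −1.73 and −0.98). Other ER stress genes rose in both starvations: Herpud1, an ER degradation gene, by 2.67, 2.05 and 1.46 without amino acids and by 1.94, 2.25 and 3.35 without glucose. Dnajb9, an ER co-chaperone, rose by 2.46, 2.33 and 1.94 without amino acids and by 1.21, 1.23 and 2.44 without glucose. Ddit3, the stress factor CHOP, rose by 2.80, 2.80 and 2.84 and by 2.39, 3.13 and 4.52. Txnip, a glucose-responsive arrestin family gene, fell without glucose (−4.65, −3.86 and −2.40) and rose without amino acids (0.68, 1.88 and 2.45), and 21.6% of its exon bases are shared with Gm15441. Its mean was 8.94 CPM in the control and 0.358, 0.606 and 1.71 CPM along glucose starvation. The glucose starved libraries held 6 to 84 Txnip reads each, so the sizes of these falls rest on few reads. Arrdc4, another arrestin family gene of the list, had a mean of 0.972 CPM in the control. Its means were 0.739, 0.589 and 0.932 CPM along glucose starvation and 0.726, 1.11 and 1.94 CPM along amino acid starvation. The part of these genes in the levels of the hexosamine genes was not tested.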

How the data were processed

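The genes and gene lists described here were chosen with earlier results of these data known. Per the labels' protocols, total RNA of MEFs was sequenced, and groups and replicate numbers came from the titles. The authors deposited 1 table of whole-number read counts per transcript (67457 lines, 58 naming no gene and holding 0% of reads). Per the submitters' processing notes, STAR and bedtools were used with the build GRCm39. Versions, annotation, counting rule and strand are not given in the sources used here, so reads of overlapping genes cannot be told apart. Each gene was represented by its line with the most reads, since 13432 genes had several.

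The analysis used edgeR 4.0.16 under R 4.3.3: filterByExpr, TMM, robust quasi-likelihood fit of 7 group means over all 14 libraries (coefficient of variation 5.78%, 7 residual and a median of 20.9 prior degrees of freedom), 12 two-sided comparisons, Benjamini-Hochberg adjustment per comparison at 0.05. The script was tested on simulated data. CPM per kilobase uses the lengths in the table. The exon overlaps come from a GRCm38 annotation and promoters from RefSeq. Named genes are the 8, up to 3 called genes with the largest change per list and comparison, the stress genes, and the 3 most correlated genes (mean log2 CPM no lower than 3, no provisional symbol). Styx, Dop1a and the overlapping genes were named after the overlaps were seen. Alternatives were RLE factors or library totals, DESeq2 1.42.0, leaving out each library, and the second transcript of the 6 genes with several. Further ones were a block for the replicate number, a fit on only the groups compared, and no filter or a stricter one (1 CPM in 4 libraries). The 2 libraries of every group differed beyond sampling noise (chi-square per degree of freedom 3.46 to 14.6). Some genes that the naming rule takes are left out of the text.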

Additional observations from a re-analysis of the deposited data

Results flagged for a closer look

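The change from 3 to 12 h differed between the 2 starvations for 5 of the 8 genes, by the test of the difference itself (glucose minus amino acid starvation, log2, edgeR's quasi-likelihood test). For Gfpt1 the difference was 0.53 (adjusted p = 7.95e-06), from a rise of 0.54 without glucose and a change of 0.01 without amino acids. Pgm3 differed by 0.78 (adjusted p = 1.57e-05), from 0.59 without glucose and −0.19 without amino acids. Uap1 differed by 0.72 (adjusted p = 1.1e-06), having fallen by 0.43 without glucose and by 1.15 without amino acids. Ogt differed by −0.33 (adjusted p = 0.00216), having risen by 0.23 and 0.56. Dpagt1 differed by −0.26 (adjusted p = 0.0243), having fallen by 0.55 and 0.28, and this call depended on single libraries.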

How the results depend on the processing

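The 8 genes in 12 comparisons gave 96 values, of which 75 passed. Leaving out each of the 14 libraries in turn kept 1312 of 1344 values on their side of the threshold, with 26 calls lost, 6 gained and no sign turned among called values. The number of the 8 genes called stayed at 7 after 12 h of amino acid starvation and at 6 at 3 h of amino acid against glucose starvation, ranged from 6 to 8 at 6 h of amino acid against glucose starvation and from 4 to 6 after 6 h of glucose starvation and from 3 to 12 h of amino acid starvation, and moved by 1 in the other comparisons. DESeq2 and RLE factors each kept 94 of 96 values, and the filter of CPM of 1 in 4 libraries kept 95. No filter kept 96, and fitting only the groups compared kept 92. The second transcript kept 95, but Gfpt2 and Dpagt1 have a single listed transcript and kept their line. For Uap1 and Nagk the second line held 100% and 99.5% as many reads as the first. For these genes that setting could hardly differ and says little. Scaling by library totals changed the most, with 81 kept, 7 gained and 6 lost. It reversed 2 values, both of Dpagt1: after 3 h of glucose starvation against the control −0.164 in place of 0.004, and from 3 to 12 h of amino acid starvation 0.0247 in place of −0.28. It moved 13 further called values by over 1.5 times without ending their calls, such as the difference between the time courses of Gfpt1 (0.28) and Ogt (−0.58). It also ended the calls of Gnpnat1 between the starvations at 6 h (−0.17) and 12 h (−0.13). Replicate numbers did not pair the libraries: over 21 pairs of groups the correlation of deviations was −0.035 to 0.0536. The replicate block gave 10774 genes called after 3 h of amino acid starvation, in place of 10615, and changed none of the 96 calls. Depth limits Gfpt2 most, the gene with the fewest reads, at 3167 over all libraries.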

Other observations

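The table lists more than 1 transcript for 6 of the 8 genes. A Gfpt1 transcript of 2286 bases held 33.3% to 38.4% as many reads per library as the 6238-base transcript used above, and a Pgm3 transcript of 1920 bases held 79.2% to 92.2% as many as the 2666-base one. The other 2 transcripts of Uap1 held 99.8% to 100% as many as the line used. For Gfpt2 and Dpagt1 a single transcript was listed.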
